A study of Mus musculus with 617 samples.

Results

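Zscan4c, Zscan4d, Zscan4f, Zfp352, Tcstv1 and Tcstv3 are genes of the 2-cell-like state, and their 6 rows were followed through every cell of a single-cell RNA study of early mouse development. The members were taken by gene symbol from the 43628 gene rows of each expression table, and all 6 had a row. A few cells in cultures of mouse embryonic stem (ES) cells at any time carry transcripts that are otherwise typical of the embryo after its first cleavage. The Zscan4 genes, a cluster of near-identical SCAN and zinc finger genes that take part in telomere maintenance, are the best-known markers of these cells. The homeodomain factor Dux switches on the Zscan4 and Tcstv genes together with MERVL endogenous retroviruses, and cells pass through the state for a short time.

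RNA was measured in 617 single cells by SMART-seq2 with Tn5 tagmentation, in 13 groups. A female and a male ES cell line with CAST/EiJ as the father's strain and C57BL/6J as the mother's were each held in 2i and LIF (a naive medium; 60 female and 51 male cells) and in serum and LIF (68 and 52 cells). Both lines were also turned into epiblast stem cells with Activin A and FGF2 (Epi; 79 and 63 cells) and, through embryoid bodies with retinoic acid and the agonist SAG, into motor neurons (39 and 35 cells), a protocol that also gives interneurons. A further female Epi culture was kept for 7 passages (41 cells). Embryos of the same cross gave inner cell mass cells at E3.5 (23 cells) and epiblast cells at E4.5 (23 cells), both without a labelled sex, and C57BL/6J embryos gave epiblast cells at E5.5 (20 female and 63 male). Each cultured group is 1 culture of 1 line, so line and sex cannot be told apart, and cells of a culture are not replicates of its state.

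The values are FPKM, fragments scaled to transcript length and library size, and the read depth of a cell is not known from them. Cells had a median of 8122 (E3.5) to 10839.5 (female E5.5) detected genes, those at 1 FPKM or more, across the groups. The tables were normalised separately, so levels at the blastocyst, E5.5 and 7-passage stages carry any difference in their processing. The median FPKM sum of a cell was 1.33e6 and 1.48e6 in the female and male motor neurons, and at most 1.03e6 in every other group. Pou5f1, the pluripotency factor Oct4, was at 1 FPKM or more in all ES cells and all embryo cells, in 98.7% of female and 98.4% of male Epi cells, and in 43.6% of female and 5.71% of male motor neurons. Sox2, another core pluripotency factor, was at 1 FPKM or more in 91.1% of female and 20.6% of male Epi cells. Isl1, a transcription factor that defines motor neurons, was at 1 FPKM or more in 43.6% of the female and 62.9% of the male cells labelled motor neuron.

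Zscan4c, Zscan4d and Zscan4f lie in 1 cluster on chromosome 7, at chr7:11005745-11010547 on the plus strand, chr7:11161374-11166159 on the minus strand and chr7:11397915-11402318 on the plus strand (GRCm38, GENCODE vM21). Tcstv1 lies at chr13:119893388-119894785 on the minus strand and Tcstv3 at chr13:120316878-120318178 on the plus strand. Zfp352, a zinc finger gene of the early embryo, lies at chr4:90218820-90225702 on the plus strand. All 6 are annotated as protein coding, and no other annotated gene overlaps them. Reads of the family cannot all be placed on 1 row. Of the 50-base runs in the Zscan4c transcript, 85.5% occur in the transcript of another annotated gene and 65.3% in Zscan4f. The same shares with any other gene are 49.6% for Zscan4d, 86.8% for Zscan4f, 31.4% for Tcstv3, 15.0% for Tcstv1 and 7.09% for Zfp352. Levels of the single Zscan4 rows are therefore uncertain, and a low Zscan4f row is not evidence that the gene was silent.

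RefSeq promoter windows (GRCm38.p6, the 250 bases before the start, 5′ to 3′ on the gene's strand) were found for 4 of the 6 members, all but Tcstv1 and Tcstv3. They are shown because 3 of the 4 cells with Zscan4c at 1 FPKM or more also had Zscan4d, while no cell with Zfp352 at that level had either. Zfp352 was at that level in only 10 of the 600 cells without a Zscan4 row (1.67%). Its lack of overlap with the 17 Zscan4 cells is therefore not read as a result. Of the 50-base runs in Zscan4c, 36.6% also occur in Zscan4d, and the part of shared reads in their joint detection was not tested. Below 1 FPKM, Zfp352 was at 0.212, 0.181 and 0.347 FPKM in cells with Zscan4d at 1 FPKM or more. Capitals mark matches to GATTNAAT on either strand, the core letters of the Dux motif, and to TATAAAA on the gene's strand, a TATA box.
Zscan4c, chr7:11005495-11005744, plus strand: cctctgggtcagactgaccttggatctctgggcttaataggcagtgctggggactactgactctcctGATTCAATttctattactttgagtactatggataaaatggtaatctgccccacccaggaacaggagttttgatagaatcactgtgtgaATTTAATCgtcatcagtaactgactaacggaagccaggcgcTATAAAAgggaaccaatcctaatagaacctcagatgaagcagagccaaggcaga
Zscan4d, chr7:11166149-11166398, minus strand: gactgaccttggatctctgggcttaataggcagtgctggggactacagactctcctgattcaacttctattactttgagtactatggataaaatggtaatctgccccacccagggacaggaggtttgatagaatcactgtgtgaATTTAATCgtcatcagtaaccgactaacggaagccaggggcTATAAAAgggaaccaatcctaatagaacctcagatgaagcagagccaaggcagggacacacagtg
Zscan4f, chr7:11397665-11397914, plus strand: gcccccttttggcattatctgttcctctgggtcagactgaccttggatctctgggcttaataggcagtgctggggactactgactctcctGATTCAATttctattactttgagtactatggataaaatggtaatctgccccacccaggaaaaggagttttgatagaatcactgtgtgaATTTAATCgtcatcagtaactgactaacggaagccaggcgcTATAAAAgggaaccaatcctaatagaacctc
Zfp352, chr4:90218570-90218819, plus strand: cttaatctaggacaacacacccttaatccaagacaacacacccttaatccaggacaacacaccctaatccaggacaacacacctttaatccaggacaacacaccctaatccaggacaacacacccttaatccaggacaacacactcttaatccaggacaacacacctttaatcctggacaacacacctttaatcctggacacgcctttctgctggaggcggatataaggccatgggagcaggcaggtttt

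The Zscan4c and Zscan4f windows each held 2 matches to GATTNAAT and the TATAAAA match, and the Zscan4d window held 1 match to GATTNAAT and the TATAAAA match. The Zfp352 window held neither set of letters. Among 32851 windows of the same length, 1.80% held GATTNAAT on either strand and 4.98% held TATAAAA. The full Dux motif, 11 letters with GATTNAAT inside, was also searched. None of the windows shown held it, and 10 of the 32851 windows did (0.0304%). The matches in the Zscan4 windows are thus to the core letters alone. Where the windows overlap, Zscan4c and Zscan4f were identical at 99.6% of aligned bases (1 differed), Zscan4c and Zscan4d at 97.1%, and Zscan4d and Zscan4f at 96.8%. A match is a description of the letters and does not show binding.

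RNA of the members was rare. Of 617 cells, 42 (6.81%) had at least 1 member at 1 FPKM or more, 17 (2.76%) a Zscan4 row and 20 (3.24%) a Tcstv row. Zscan4d reached 1 FPKM in 16 cells and 10 FPKM in 3, with a highest level of 136.4 FPKM. Tcstv3 reached 1 FPKM in 14 cells and 10 FPKM in 7, with a highest level of 140.1 FPKM. Zscan4c reached 1 FPKM in 4 cells and 10 FPKM in 1, and Tcstv1 in 8 cells and 1 cell. Zfp352 was above 0 in 67 cells, more than any other member, but reached 1 FPKM in only 10 and never 10 FPKM, with a highest level of 3.97 FPKM. Zscan4f was above 0 in 4 cells, all male 2i cells, and stayed at or below 0.481 FPKM. The order of the members by cells at 1 FPKM was Zscan4d, Tcstv3, Zfp352, Tcstv1, Zscan4c and Zscan4f, and neighbours in it differ by only 2 to 4 cells.

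**Figure D1:**
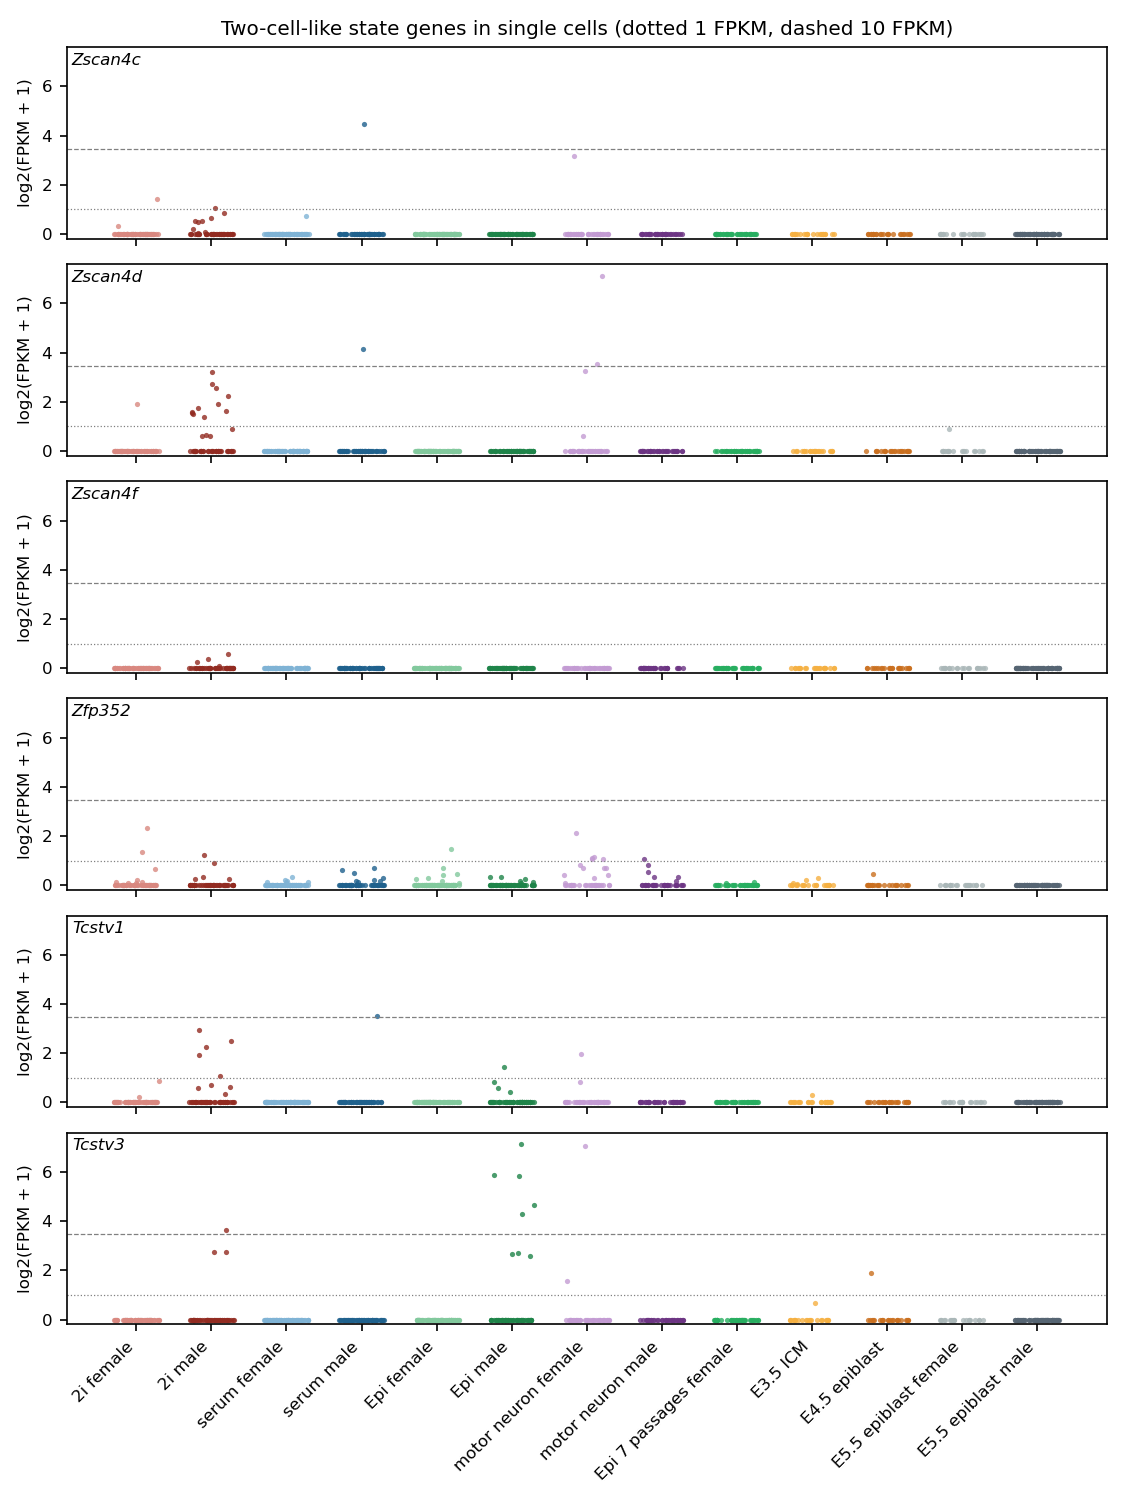
Level of each of the 6 members in every cell, as log2(FPKM + 1) on the vertical axis, with 1 point per cell and 1 column per group; the dotted and dashed lines stand at 1 and 10 FPKM. Nearly all of the 617 cells lie at 0, the male 2i cells hold 11 of the 16 cells with Zscan4d at 1 FPKM or more, and the male Epi cells hold 8 of the 14 cells with Tcstv3.

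The cells with a member were unevenly spread over the groups. The male 2i culture had 16 of 51 cells (31.4%, exact Clopper-Pearson 95% interval 19.1 to 45.9, counting error only) with a member at 1 FPKM or more, and the female motor neurons 10 of 39 (25.6%, 13.0 to 42.1). Male Epi cells followed with 8 of 63 (12.7%, 5.65 to 23.5) and female 2i cells with 4 of 60 (6.67%, 1.85 to 16.2). The interval of each of these 4 groups overlaps that of the next. The order holds at 1 FPKM and not at higher levels. At 5 FPKM the male 2i, male Epi and female motor neuron groups had 6, 7 and 4 cells (11.8%, 11.1% and 10.3%). At 10 FPKM they had 1 (1.96%, 0.0496 to 10.4), 5 (7.94%, 2.63 to 17.6) and 3 (7.69%, 1.62 to 20.9), the male serum culture had 1 (1.92%), and no other group had any. The male motor neurons, the male serum cells, the female Epi cells and the E4.5 epiblast each had 1 cell, out of 35, 52, 79 and 23. No cell reached 1 FPKM for any member among 68 female serum cells, which allows a share of up to 4.41%, 41 Epi cells of 7 passages (7.32%), 23 E3.5 cells (13.0%), or 20 female and 63 male E5.5 cells (15% and 4.76%). These limits are 3 cells of each total. The exact upper bounds are higher, at 5.28% for the female serum and 16.8% for the female E5.5 cells. Each group is 1 culture or 1 set of embryos, so no share was tested against another. In the male 2i culture the cells with a member had a median of 10495.5 genes, against 10393 for the group, and 9 of 16 lay above the group's median. In male Epi 4 of 8 and in female motor neurons 5 of 10 did, while all 4 female 2i cells (median 10573.5 against 10400) and the E4.5 cell (9889 against 8754) did. The single cells of the male serum, female Epi and male motor neuron groups lay below.

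**Figure D2:**
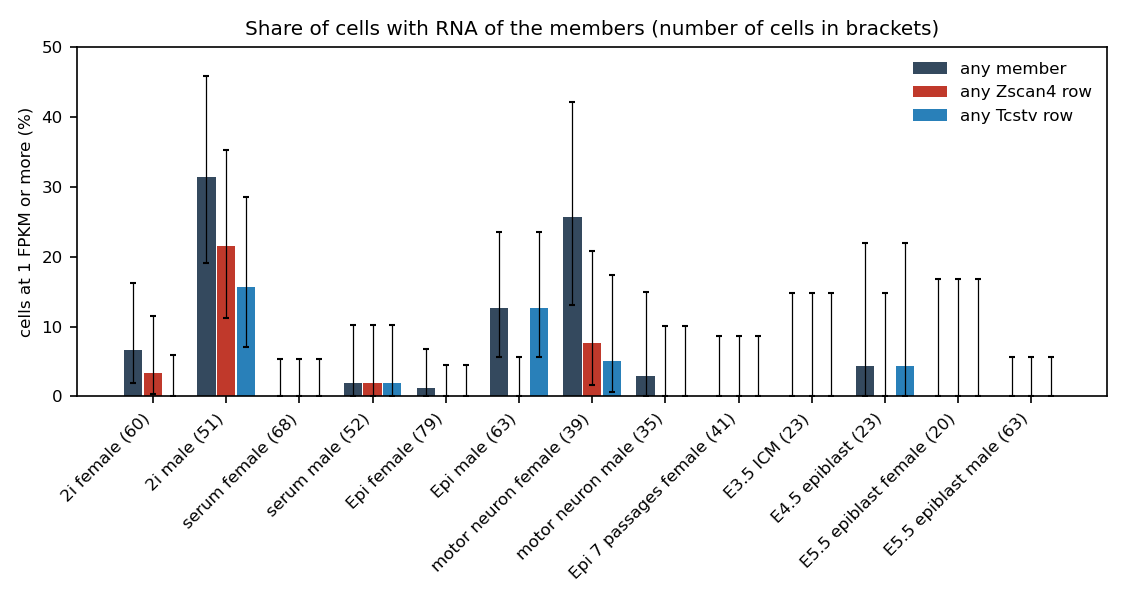
Share of cells (percent, vertical axis) with any member, any Zscan4 row or any Tcstv row at 1 FPKM or more in each group, with the number of cells in brackets and exact 95% binomial intervals as error bars. Zscan4 and Tcstv bars are both present in the male 2i, male serum and female motor neuron groups, whereas the male Epi bar comes from Tcstv rows alone.

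Zscan4d was the Zscan4 row most often at 1 FPKM or more in the male 2i culture. Of the 3 Zscan4 rows it also shares the least sequence with other genes (49.6% of 50-base runs, against 85.5% for Zscan4c and 86.8% for Zscan4f). The part of read placement in its lead was not tested. In the male 2i culture Zscan4d was at 1 FPKM or more in 11 of 51 cells (21.6%, 11.3 to 35.3), at 1.575 FPKM in the lowest of these, 2.37 in the middle one and 8.29 in the highest. In the female 2i culture it was at 2.72 FPKM in 1 of 60 cells (1.67%, 0.0422 to 8.94) and at 0 in the others. Zscan4c was at 1 FPKM or more in 1 male 2i cell, at 1.07 FPKM beside 1.89 FPKM of Zscan4d, and in 1 female 2i cell, at 1.69 FPKM with Zscan4d at 0. The male 2i cells fall into 2 runs of title numbers, whose meaning the labels do not give. A member was present in 8 of 22 cells of the first run (36.4%) and 8 of 29 of the second (27.6%), and a Zscan4 row in 5 and 6 cells.

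Tcstv rows joined Zscan4 in a part of the male 2i cells. Tcstv1 was at 1 FPKM or more in 5 of the 51 cells and Tcstv3 in 3, with no cell holding both. Of the 11 cells with a Zscan4 row, 4 (36.4%) also had a Tcstv row, against 4 of the 40 others (10%). The first of these 4 cells had 2.12 FPKM of Zscan4d and 11.4 FPKM of Tcstv3, and the next had 3.75 FPKM of Zscan4d and 1.10 FPKM of Tcstv1. Another had 2.78 FPKM of Zscan4d and 3.76 FPKM of Tcstv1, and the last had 2.37 and 2.78 FPKM of the same rows. Of the 4 Tcstv cells without a Zscan4 row at 1 FPKM, 3 had Zscan4c between 0.420 and 0.828 FPKM, and with a threshold of 0.1 FPKM, 9 male 2i cells in place of 4 had Zscan4 and another member. At 5 or 10 FPKM none of them co-expressed, so the co-expression of male 2i cells rests on levels of 1 to 4 FPKM. In the cell with 11.4 FPKM of Tcstv3 this holds for Zscan4d alone, and in the others for both rows.

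**Figure D3:**
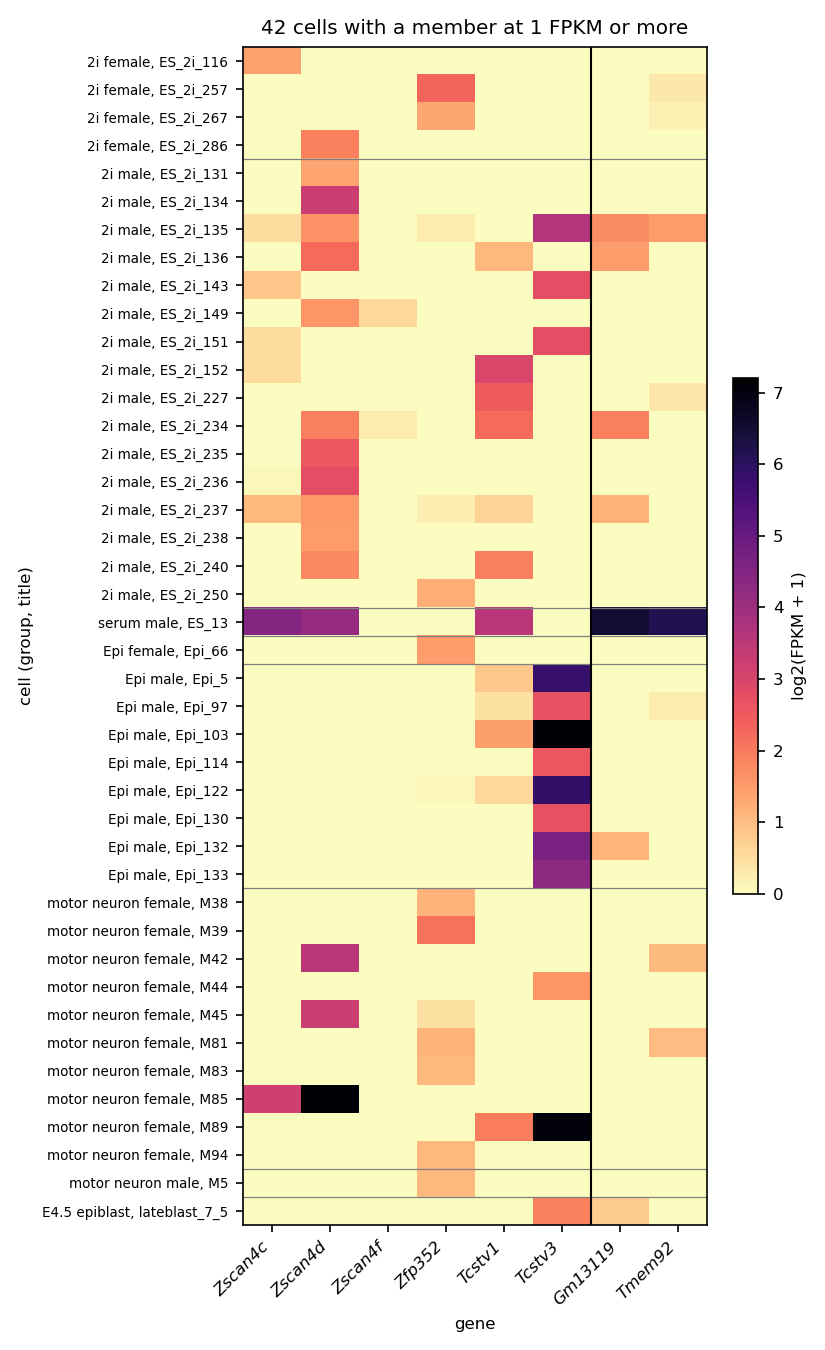
The 42 cells with a member at 1 FPKM or more (rows, by group and title) and the log2(FPKM + 1) of the 6 members and of Gm13119 and Tmem92, the non-members most alike (columns; darker is higher). Zscan4 and Tcstv rows are dark in the same row in 4 male 2i cells and 1 male serum cell, the 8 male Epi rows are dark for Tcstv3 with Zscan4 at 0, and Zfp352 is alone in its cells at 1 FPKM.

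Over all 617 cells, 5 of the 17 with a Zscan4 row (29.4%) had a Tcstv row, against 15 of the other 600 (2.5%). All 5 were male ES cells, and they make up 5 of the 20 cells with a Tcstv row. The pooled shares mix groups that differ in how often they held either row. Within the male 2i culture they were 36.4% and 10%. In female motor neurons 0 of 3 cells with a Zscan4 row had a Tcstv row, against 2 of 36 without. Zfp352 shared no cell with a Zscan4 or Tcstv row at 1 FPKM in any group. Without a Zscan4 row, 10 of 600 cells (1.67%) had Zfp352, and without Zfp352, 20 of 607 cells (3.29%) had a Tcstv row. Against such low shares, the cells with Zfp352 are too few to read a lack of overlap. The 10 Zfp352 cells were 5 female motor neurons, 2 female and 1 male 2i cell, 1 female Epi cell and 1 male motor neuron. Its levels in the female motor neurons were 1.09, 1.12, 1.19, 1.22 and 3.35 FPKM, and 4 of these 5 cells, and the male cell at 1.07 FPKM, fell under 1 FPKM when each cell was rescaled to a sum of 1000000. After that rescaling the female motor neurons had 6 of 39 cells with a member (15.4%) and the male ones 0 of 35. The female 2i cells had 5 of 60, and the male 2i and male Epi counts were 16 and 8 as before.

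One male serum cell, cell 13, held most of the Zscan4 RNA of the serum cultures. It had 21.2 FPKM of Zscan4c, 16.8 of Zscan4d and 10.4 of Tcstv1, with Zscan4f, Zfp352 and Tcstv3 at 0. Zscan4b, a Zscan4 copy outside the members, was at 2.26 FPKM. No other one of the 52 male serum cells had a member at 1 FPKM, a share of 1.92% (0.0487 to 10.3). The cell had 9257 genes at 1 FPKM or more, against a median of 9645 in its culture, and an FPKM sum of 996278, against 922930.

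In the same cell, 8 of 40 other genes of the 2-cell-like state were at 1 FPKM or more. The other male serum cells had at most 4, with a median of 1. The genes of that list named here are the highest in this cell, so their rank there is by choice. Gm13119, a PRAME-like gene, was at 90.3 FPKM and at 0 in the 51 other cells of the culture. Arg2, a mitochondrial arginase, was at 74.4 FPKM with at most 4.29 elsewhere in the culture. Tmem92, a membrane protein gene, was at 71.6 FPKM with at most 3.03 elsewhere, and Gm12794 was at 22.1 FPKM and 0 in the others. Duxf3, the annotation's symbol for Dux and named here after its value was seen, was at 3.31 FPKM, with at most 1.72 in the other cells of the culture. It was higher in other groups. In 4 of 79 female Epi cells, a group with all 3 Zscan4 rows at 0, Duxf3 was at 1 FPKM or more, at up to 12.3. In 1 of 23 E3.5 cells it was at 4.76 FPKM, and no E3.5 cell had a member at 1 FPKM.

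Of 18 genes that restrain or promote the state, 5 were above all 51 other male serum cells in this cell (Trim28, Rif1, Zmym2, Dppa2 and Nelfa), 12 were above the median of those cells and 6 below it. The 4 with the highest level in the cell are given with their values. Trim28, a corepressor that silences retroviruses, was at 3871 FPKM (median of the 51 others 973, highest 2195). Dppa2, an activator of Dux, was at 195.8 FPKM (median 25.03, highest 79.02), and Nelfa, a maternal factor that can start the state, at 187 (median 28.3, highest 68.1). Rif1, which represses Zscan4, was at 162 FPKM (median 52.1, highest 135.1). Of 6 pluripotency markers, 3 were above all the other cells and 3 below their median. Nanog was at 838 FPKM (median 64.1, highest 345), Zfp42 at 347 (highest 269.5) and Sox2 at 89.02 (highest 79.5). Pou5f1 was at 329 FPKM, with only 2 of the 51 other cells lower (median 622). Esrrb and Klf4 were at 12.7 and 1.95 FPKM, below medians of 19.5 and 4.41. The share of all genes that lay above every other male serum cell in this cell was not computed. The counts of 5 of 18 regulators and 3 of 6 pluripotency markers thus have no background, and are not read as particular to these lists. Markers of other cell types in this cell were mixed. 3 of 6 fibroblast markers were at 1 FPKM or more, and Pdgfrb was at 0. The 6 summed to 53.7 FPKM, against a median of 0.159 (0 to 77.9) in the other male serum cells. Of the 6, 5 were above the median of those cells and 1 at it. Col3a1, a fibroblast collagen, was at 34.5 FPKM, above all 51 others (highest 27.4). Thy1 was above 50 of them and Col1a1 above 48. Of 5 neuron markers 2 were at 1 FPKM or more, with Dcx, Isl1 and Slc18a3 at 0. Tubb3 was at 89.5 FPKM, above 50 of the 51 others (median 11.0). The 5 summed to 91.4 FPKM, against a median of 13.0 (0 to 187.9). Of 6 trophectoderm markers 3 were at 1 FPKM or more, with Cdx2, Eomes and Elf5 at 0. The 6 summed to 42.9 FPKM, against a median of 33.7 (0 to 231.4). Of 6 primitive endoderm markers 1 was at 1 FPKM or more, with Sox17, Sox7 and Pdgfra at 0. The 6 summed to 6.52 FPKM, against a median of 0.125 (0 to 23.1). Whether 2 cells shared this library was not tested.

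**Figure D4:**
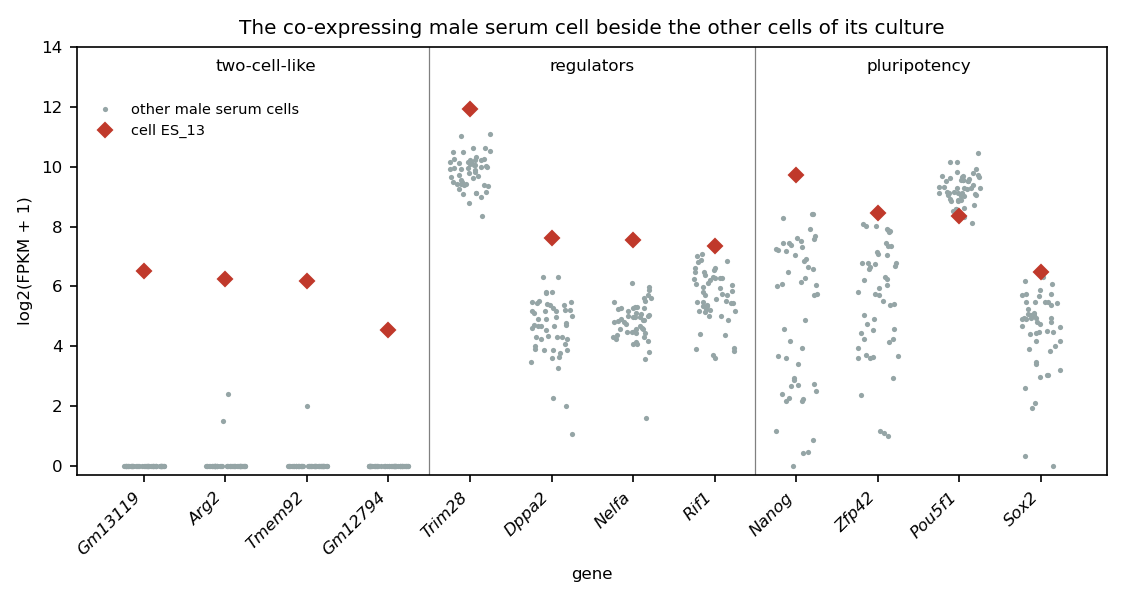
Levels, as log2(FPKM + 1), in male serum cell 13 (red diamonds) and the 51 other male serum cells (grey points) of the 4 genes with the highest level in that cell from each of 3 lists: other 2-cell-like genes, regulators of the state and pluripotency genes. The diamond is above all grey points for every gene but Pou5f1, where 2 grey points are lower.

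Genes whose levels moved most like the members were sought over the ES cells of both lines and media. The measure was Pearson r of log2(FPKM + 1), centred within each culture, with the mean of the 6 members, over 20253 genes at 1 FPKM or more in at least 5 of the cells. It is a description over cells that share libraries' depth and cultures, with no test. The 10 highest were Gm13119 (r 0.69), Tmem92 (0.68), Mettl21c (0.67), Gm12794 (0.66), Gm8711 (0.59), Gm11543 (0.57), BC080695 (0.56), Slfn5 (0.53), Gm8300 (0.53) and Prrx1 (0.51). All 10 were lower without cell 13, to unlike degrees. Gm13119 then had r 0.25, Gm12794 0.29, Tmem92 0.14, Mettl21c 0.051 and Prrx1 -0.018. None of the 10 was among the 10 highest over the 230 cells left. Among the 20253 genes, Gm12794 then ranked 18, Gm11543 19, Gm13119 41, Gm8300 45 and Gm8711 58. BC080695 ranked 402, Tmem92 590, Slfn5 3556, Mettl21c 5351 and Prrx1 14010. In the male 2i culture, which does not hold that cell, Gm8300 was at 1 FPKM or more in 4 of the 16 cells with a member and 1 of the 35 without, Gm12794 in 4 and 3, and Gm13119 in 4 and 4. Slfn5 was there in 2 and 0 cells, Gm8711 and Gm11543 each in 3 and 2, BC080695 in 2 and 3, Tmem92 in 1 and 2, Prrx1 in 0 and 1, and Mettl21c in none of either. Male 2i cells with a member had a median of 2 of the 40 other 2-cell-like genes at 1 FPKM (0 to 8), and those without had a median of 1 (0 to 7).

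Male Epi cells held Tcstv3 without Zscan4. Tcstv3 was at 140.1, 58.3, 55.9, 24.3, 18.8, 5.48, 5.35 and 4.93 FPKM in 8 of 63 cells and at 0 in the other 55, and all 3 Zscan4 rows were at 0 in all 63. In the cell with 140.1 FPKM, Tcstv1 was at 1.75 FPKM, and Tcstv1 was under 1 FPKM in the others. Of these 8 cells, 7 were among the 32 cells of the second run of title numbers (21.9%), and 1 was among the 31 cells of the first (3.23%). No female Epi cell, in 79 of the first culture and 41 of 7 passages, had a Tcstv row at 1 FPKM, which allows shares of up to 3.80% and 7.32%. Of the rows that share sequence with Tcstv3, Gm21818 was at 1 FPKM or more in 2 of the 8 cells, at up to 21.4 FPKM, and in 1 of the other 55. The related rows AF067061, Gm20767 and BC147527 were at 0 in the 8 cells. In the male 2i culture BC147527 was at 1 FPKM or more in 2 of the 3 Tcstv3 cells and in 5 of the 48 others. It shares 0.685% of the 50-base runs of Tcstv3.

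The 8 male Epi cells had a median of 0 of the 40 other 2-cell-like genes at 1 FPKM (0 to 1), as did the 55 others. Their 6 pluripotency markers summed to a median of 90.3 FPKM (15.4 to 541), against 253.8 (23.2 to 1185) in the others. Their summed primitive endoderm markers were at a median of 90.5 FPKM (62.3 to 130, Sox7 at 0 in all), against 47.8 (0 to 748), with 4 of 6 markers at 1 FPKM in at least 1 cell. Their trophectoderm markers were at 165 FPKM (84.9 to 290, Cdx2 and Elf5 at 0 in all), against 116.8 (22.8 to 1725), also with 4 of 6. The part of these markers, and of the title runs, in the Tcstv3 result was not tested.

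Female motor neurons held members in single cells of other kinds. Zscan4d was at 136.4, 10.6 and 8.42 FPKM in 3 of 39 cells, and Tcstv3 at 131.6 and 1.99 FPKM in 2 others. The cell with the most Zscan4d, M85, had Zscan4c at 7.94 FPKM and only 4332 genes at 1 FPKM or more, the only cultured cell under 50% of its group's median. Its FPKM sum was 2.73e6, the highest of the 39 cells, and after rescaling its Zscan4d was at 50.03 FPKM. The cell with 131.6 FPKM of Tcstv3 had the next highest sum, 2.53e6, and 52.1 FPKM after rescaling. Tcstv1 stood at 2.86 FPKM in that cell, and no female motor neuron had Zscan4 and another member together at 1 FPKM. Without M85, 9 of 38 cells (23.7%, 11.4 to 40.2) had a member. Of the 40 other 2-cell-like genes, the 10 cells with a member had a median of 1.5 at 1 FPKM (0 to 5, 9 cells with any), and the 29 without had a median of 0 (0 to 6, 11 cells with any). M85 had 5 of them, summing to 122.3 FPKM. Pluripotency markers summed to a median of 45.4 FPKM (0 to 154) in the cells with a member and 22.7 (1.32 to 692) in those without. Neuron markers summed to a median of 329 FPKM (31.6 to 4527) in the 10 cells with a member and 36.8 (0.382 to 4537) in the 29 without, and fibroblast markers to 34.4 (0.359 to 398, 5 of 6 markers, Postn at 0 in all) and 6.45 (0 to 1101). Their part in the result was not tested.

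In the embryo, members were at the limit of detection. At E4.5, 1 of 23 epiblast cells had Tcstv3 at 2.76 FPKM. At E3.5 no member reached 1 FPKM, although the inner cell mass cells had a median of 2 of the 40 other 2-cell-like genes (1 to 7). At E5.5 the highest member value was 0.872 FPKM of Zscan4d in 1 female cell.

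Between culture states, the means per culture were tested with limma over the 8 cultures of the joint table, with female and male cultures as the 2 replicates of each state. Only Tcstv3 of the 6 members had a mean of at least 1 FPKM over the cultures and entered the test, and it did so through the male Epi and female motor neuron cultures. Its mean was 0 and 0.447 FPKM in the female and male 2i cultures, 0 in both serum cultures, 0 and 4.97 in Epi, and 3.43 and 0 in motor neurons. Only 1 culture of a state thus held it in each of the 3 states where it was found, and the groups overlap at 0. The log2 change of Tcstv3 from serum to Epi was 1.29 (SE 1.00, adjusted p 0.761, limma), higher in 1 of 2 lines. From serum to motor neurons it was 1.07 (SE 1.00, adjusted p 0.426, limma), and from 2i to serum -0.27 (SE 1.00, adjusted p 1, limma). The sizes depend on the scale: they were 2.83, 2.57 and -1.23 with a pseudocount of 0.1, and 0.28, 0.11 and -0.089 with log2 values averaged over cells, with no call in either setting. Of all 15504 genes tested, 0.0387% were called from serum to Epi, 32.8% from serum to motor neurons and 0.0193% from 2i to serum, where a call needs a log2 change of 1 or more in size with an adjusted p below 0.05. With no filter on low values all 6 members were tested and none was called in any of the 3 comparisons. The smallest unadjusted p was 0.0619, for Zfp352 from serum to motor neurons (log2 change 0.21, SE 0.087, adjusted p 0.209, limma).

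Among the other genes of the state, 3 of 40 passed the filter. From serum to motor neurons, where 30.1% of all genes tested were called higher and 2.7% lower, 1 of the 3 rose and 1 fell: Arg2 rose by 2.85 on the log2 scale (SE 0.59, adjusted p 0.0133, limma) and Usp26, an X-linked deubiquitinase gene, fell by 2.30 (SE 0.46, adjusted p 0.0125, limma). Their median log2 change was -0.14, against 0.71 over all genes tested. Of 17 regulators tested, 1 was lower in motor neurons than in serum: Uhrf1, which guides maintenance DNA methylation, fell by 1.02 (SE 0.30, adjusted p 0.0395, limma). The median of the 17 was -0.030. No gene of either list passed the test from 2i to serum or from serum to Epi. By name, Usp26, Uhrf1, Zmym2, Esrrb and Klf4 were chosen after their values were seen.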

How the data were processed

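The deposited values are FPKM per gene and cell, in 4 tables that the authors made with STAR 2.4.1, Cufflinks and Cuffnorm 2.2.1 on mm10, per the submitters' processing notes. Strand, cell filters and annotation are not given in the sources used here. Of 43628 gene IDs, 42462 took a symbol from GENCODE vM21 (GRCm38). A low line stood for the minus sign of the exponent in 356 values, which were read as small numbers. The highest Pearson r between 2 cells was 0.938.

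A cell held a member at 1 FPKM or more, with 10 FPKM as a higher limit. Shares carry exact Clopper-Pearson 95% intervals, and a count of 0 allows 3 cells of the total. Culture means entered limma 3.58.1 (R 4.3.3, trend) as log2(mean + 1) for genes averaging at least 1 FPKM, with 1 coefficient per state, 4 residual degrees of freedom and Benjamini-Hochberg adjustment. The labels give both lines in each state, so the line pairs the cultures, and the line as a block was an alternative. The fit was tested on simulated data with normal spread around the mean of each gene. The culture means of the members rest on few cells or are 0, so that test does not cover them. Named genes are the members, at most 4 per list by level in the co-expressing serum cell, and the 10 most alike. The members and lists were chosen with earlier results of these data known.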

Additional observations from a re-analysis of the deposited data

Results flagged for a closer look

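For 5 of the 18 pairs of a member and a comparison, the 2 lines differed in opposite directions in mean level. The differences are of log2(mean FPKM + 1) between 1 culture and 1 culture, and the difference between the lines was not tested. From 2i to serum, Zscan4c was -0.032 in the female line and 0.38 in the male line, where serum cell 13 held all of it. From serum to Epi, Zfp352 was 0.050 in the female and -0.041 in the male line, all from means under 0.1 FPKM. From serum to motor neurons, Zscan4c was 0.25 in the female and -0.49 in the male line, Zscan4d 2.32 and -0.40, and Tcstv1 0.13 and -0.26. The female values of Zscan4c and Zscan4d rest mostly on motor neuron M85, and all 3 male values rest on serum cell 13.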

How the results depend on the processing

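The count of cells with Zscan4 and another member in the male 2i culture (7.84% of cells) was 0 at 5 and at 10 FPKM, and that of the male serum culture (1.92%) was 0 in its second run of title numbers. The other 76 values of this share over groups and settings stayed within their intervals. Most of them were 0 in groups already at 0. Such a share could not fall at a higher threshold or with cells left out, so these values say little about stability. With a threshold of 0.1 FPKM the male 2i share was 17.6%, still inside its wide interval (2.18 to 18.9). Tcstv3 was called in no setting. Its log2 change went to 0 without the male 2i culture (from 2i to serum), without the male Epi culture (from serum to Epi) and without the female motor neurons (from serum to motor neurons). With each culture left out in turn it ranged from -0.53 to 0, from 0 to 2.58 and from 0 to 2.15. In the same order it was -1.23, 2.83 and 2.57 with a pseudocount of 0.1, and -0.089, 0.28 and 0.11 with log2 values averaged over cells. From serum to motor neurons it was 0.62 with cells rescaled to the same sum. A culture left alone in its state was assumed to vary like the others. The correlation of Prrx1 with the members turned to -0.018 without serum cell 13, an alternative chosen after seeing the data.

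Calls over the whole table were less stable, and are given as percent of the genes tested. From 2i to serum, 0.0193% (3 genes) were called, 0 with a pseudocount of 0.1 (limma, 1768 genes at an unadjusted p under 0.05), 0.0797% (27) with no filter on low values, 1.44% (224) with log2 values averaged over cells, 0 with the line as a replicate block (limma, 1727 at an unadjusted p under 0.05), 0.738% with the 7-passage Epi culture, and 0 to 0.245% with each culture left out (0 when the male 2i or the male serum culture was omitted, where 843 and 928 had an unadjusted p under 0.05). From serum to Epi, 0.0387% (6) were called, 0.0129% (2) with the replicate block, 0.0258% (4) with log2 values averaged over cells, 5.49% (848) with the 7-passage culture and 0 to 2.17% with each culture left out (0 without any 1 of the 2i or serum cultures, with 466 to 644 genes at an unadjusted p under 0.05). From serum to motor neurons, 32.8% (5088) were called, 34.8% (5400) with the replicate block, 11.7% (3960) with no filter, 20.5% (3137) with cells rescaled to the same sum, and 10.6% to 35.96% with each culture left out. Of the calls after rescaling, 2166 were higher and 971 lower, against 4669 and 419 before, and the median change of all genes tested was 0.14, against 0.71. The cause was not tested, except that no filter tested more genes (33861). The summed Zscan4 rows stayed under the filter. Without read counts, values near 1 FPKM may rest on few fragments.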
